A study of Mus musculus with 18 samples.

Results

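Liver tumours of mice that lack the microRNA genes Mir181a-1 and Mir181b-1 (GKO, a germline knockout of miR-181ab1) were compared with liver tumours of wild type (WT) mice by RNA sequencing. The comparison used 6 of the 18 samples of the series, GKO tumours 1, 2 and 3 against WT tumours 1, 2 and 3, chosen by their labels. Of 54838 genes listed, 13964 were tested, those whose mean TPM over the 6 tumours reached 0.5. TPM is the number of transcripts of a gene after division by gene length and scaling to one fixed total per sample. Both groups were C57BL/6 mice (male, per the methods of the study) aged 36 weeks that had received a single intraperitoneal injection of diethylnitrosamine (DEN), a liver carcinogen that forms DNA adducts in hepatocytes, at 25 mg/kg body weight on postnatal day 12. The remaining 12 samples are 3 each of WT and GKO non-tumour liver, with the same DEN treatment, and of WT and GKO normal liver of the same age without DEN. The deletion was present in every tissue of the GKO mice, so tumour cells, stroma, immune cells and other organs all carried it.

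MicroRNAs pair through a short seed at their 5′ end with sites in the 3′ UTRs of messenger RNAs, and lower the stability or translation of those messenger RNAs. miR-181a and miR-181b share a seed, and they are known for roles in lymphocyte development, in transforming growth factor beta responses and in liver tumour cells. Cbx7, a subunit of Polycomb repressive complex 1 that binds methylated histone H3, is the target that the study put forward. The mature products of the deleted genes are shown with the seed, bases 2 to 8, in capitals, because these are the letters through which a target site pairs. The sequences come from RefSeq and the positions are on the GRCm38.p6 build, chr1:137966468-137966490 and chr1:137966650-137966673, both on the plus strand.
miR-181a-5p: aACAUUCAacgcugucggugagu
miR-181b-5p: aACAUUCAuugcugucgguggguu
The same 2 mature sequences are also encoded by Mir181a-2 and Mir181b-2 on chromosome 2, and miR-181c-5p and miR-181d-5p, encoded on chromosome 8, have the same seed, so the deletion left other genes with this seed in place. The Cbx7 3′ UTR holds this seed match followed by A at 2 places, which are shown in capitals. They lie at chr15:79916287-79916316 and chr15:79915980-79916009 on the minus strand of GRCm38.p6, and the transcript is that of GENCODE release 21.
Cbx7 site 1: ccctgcatattTGAATGTAgaggttgggtt
Cbx7 site 2: ttcagacgaccTGAATGTAttgggaggaat
Cbx7 was 0.298, 0.469 and 2.31 TPM in WT tumours 1, 2 and 3, and 2.67, 1.55 and 3.29 TPM in GKO tumours 1, 2 and 3. WT tumour 3 lay among the GKO tumours, which left no gap between the groups, and the difference of 0.89 ± 0.40 (SE) on the log2 scale did not pass the test (adjusted p = 0.572).

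The deleted locus gave almost no reads in any tumour. Mir181a-1 and Mir181b-1 had 0 reads in all 6 tumours except for 1 read on Mir181a-1 in GKO tumour 3. Over the 14 genes that overlap the host transcript Gm4258, the summed reads were 0, 2 and 0 in the WT tumours and 8, 11 and 10 in the GKO tumours. The genotype labels could therefore not be checked from the deleted genes themselves. The tumours had 17427256 to 20751348 reads on genes, recovered from the TPM values. The hepatocyte markers summed to 202740 to 232880 TPM in WT and 221960 to 241650 TPM in GKO tumours, and the defining hepatocyte markers were thus abundant in all 6. The labels do not say whether tumours of a group came from separate mice, although a legend of the study counts its tissue groups in mice, and p-values measure only the spread between these samples.

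WT tumours 1 and 2 resembled each other more than any other pair. Across genes their log2(TPM + 1) values had a Pearson r of 0.980, against 0.908 to 0.949 in the other 14 pairs of tumours. WT tumour 3 stood apart in several gene groups, as described below, and so did GKO tumour 1 in others. Counts are therefore also given with WT tumours 1 and 2 averaged as 1 sample, and without WT tumour 3.

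Against this spread, 3 genes fell in GKO tumours, and none rose, at an adjusted p under 0.05 (limma on log2(TPM + 1), Benjamini-Hochberg over the 13964 genes tested). They were 0.0215% of the genes tested. Before adjustment, 750 genes (5.37%) with an unadjusted p under 0.05 had a higher and 488 (3.49%) a lower mean in GKO tumours. The 3 values per group did not overlap for 1379 genes that were higher in every GKO tumour than in any WT tumour (9.88%) and for 667 that were lower (4.78%). The median log2 fold change over all genes was 0.09, and 8375 genes had a positive one. How many of the genes past the unadjusted threshold were higher depended on the scaling, with 60.6% in TPM as deposited and 48.9% after quantile normalization, where 634 were higher (4.54%) and 662 lower (4.74%). With limma's voom on the recovered reads, 0 genes had an adjusted p under 0.05, 587 were higher and 618 lower at an unadjusted p under 0.05. With WT tumours 1 and 2 averaged as 1 sample, 0 genes passed adjustment, 388 were higher (2.78%) and 274 lower (1.96%). Without WT tumour 3, 149 genes passed adjustment, 1234 were higher at the unadjusted threshold (8.84%) and 1259 lower (9.02%). These percentages are the background against which the gene groups are read, and a gene is said to have fallen only where its adjusted p was under 0.05.

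The 3 genes that fell are those of a milk casein, of an unnamed transcript and of a protein that binds bacterial iron carriers. Csn3, kappa casein, had 164, 134 and 92.3 TPM in WT tumours 1, 2 and 3 and 0.0782, 2.89 and 0.0880 TPM in GKO tumours 1, 2 and 3, a log2 fold change of -6.27 ± 0.53 (SE, adjusted p = 0.0434). Gm36325, on chr8:91710233-91714413 of the minus strand, had 8.18, 9.24 and 13.7 TPM in the WT tumours and 0, 0.424 and 0.465 TPM in the GKO tumours (-3.13 ± 0.27, adjusted p = 0.0434). Lcn2, lipocalin 2, an acute phase protein that neutrophils and stressed hepatocytes secrete, had 869, 906 and 971 TPM in the WT tumours and 209, 176 and 168 TPM in the GKO tumours (-2.31 ± 0.20, adjusted p = 0.0434). Within each group Lcn2 varied little, while Csn3 in GKO tumour 2 lay well above the other GKO tumours. Csn3 and Gm36325 were near 0 in non-tumour livers of both genotypes, at a mean of 0.0488 TPM in WT and 0.0305 TPM in GKO for Csn3 and 0.0141 and 0.0147 TPM for Gm36325. Lcn2 was present in non-tumour livers too, at 112 ± 148 TPM (SD, n = 3) in WT and 14.5 ± 8.71 TPM in GKO. All 3 calls were lost with a pseudocount of 0.1, under median centring, with the WT tumours 1 and 2 averaged, or without any 1 of WT tumour 1, WT tumour 2, GKO tumour 1 and GKO tumour 3. The directions were unchanged under each of these.

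**Figure D1:**
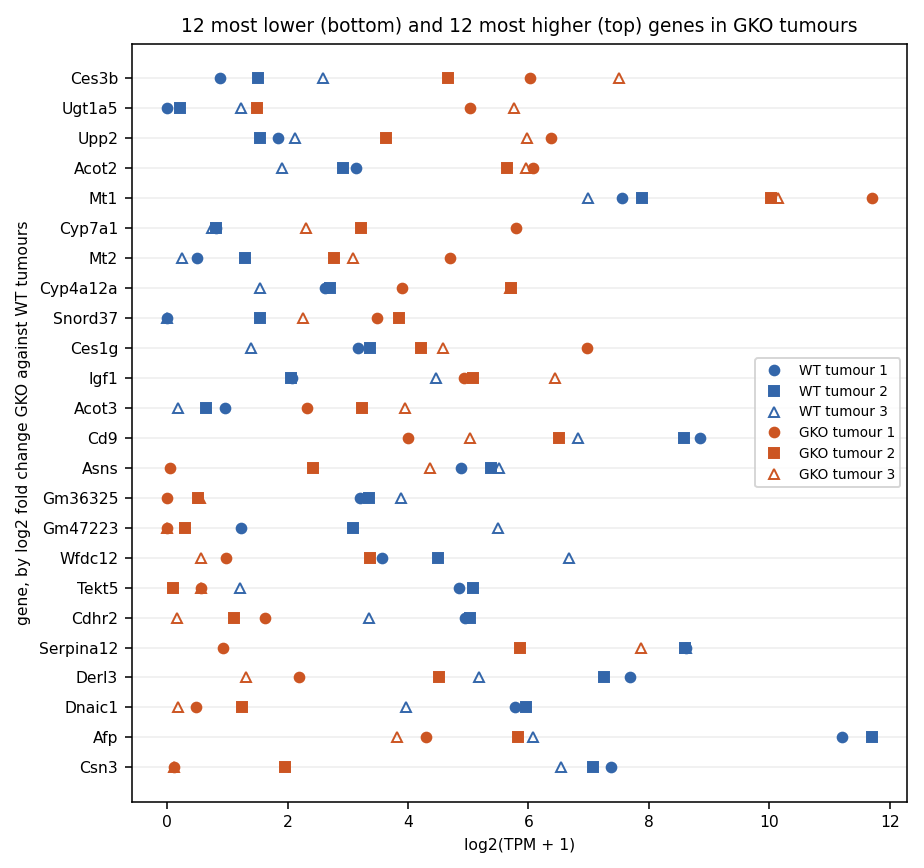
Level of 24 genes in the 6 tumours as log2(TPM + 1), for the 12 genes with the largest positive and the 12 with the largest negative log2 fold change among those with an unadjusted p under 0.05 and groups that did not overlap. Blue symbols are WT tumours 1, 2 and 3 (circle, square, triangle) and orange symbols are GKO tumours in the same order; for Afp, WT tumour 3 sits beside the GKO tumours, far below WT tumours 1 and 2.

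Among the other genes with the largest differences, which did not pass adjustment, the side higher in GKO tumours included enzymes of lipid, bile acid and drug metabolism. Acot2, a mitochondrial acyl-CoA thioesterase, was 7.82, 6.54 and 2.73 TPM in the WT tumours and 66.4, 49.0 and 61.2 TPM in the GKO tumours (log2 fold change 3.24 ± 0.35, adjusted p = 0.12). Its peroxisomal relative Acot3 was 0.950, 0.567 and 0.132 TPM against 3.998, 8.43 and 14.5 TPM. Ces3b, a carboxylesterase, was 0.849, 1.85 and 5.04 TPM against 64.2, 24.5 and 180.6 TPM (4.40 ± 0.75). In each of these 3 genes every GKO tumour lay above every WT tumour. Cyp7a1, the rate-limiting enzyme of bile acid synthesis, was 0.754, 0.758 and 0.679 TPM in the WT tumours and 54.3, 8.29 and 3.94 TPM in the GKO tumours, so that the 3 WT tumours were alike and the GKO tumours spread widely. Mt1, a metallothionein that binds zinc and copper, was 187, 236 and 126 TPM against 3324, 1045 and 1131 TPM (3.15 ± 0.49), and Mt2 showed the same order at lower levels. Igf1, the growth factor that the liver makes in response to growth hormone, was 3.22, 3.15 and 21.2 TPM against 29.4, 32.9 and 86.0 TPM, with WT tumour 3 closer to the GKO tumours than to the other WT tumours. Upp2, a uridine phosphorylase, was 2.57, 1.90 and 3.36 TPM against 81.7, 11.5 and 61.7 TPM. Ugt1a5 was higher in GKO tumours (3.62) and Ugt1a9 lower (-2.51), but both share their last exons with the rest of the Ugt1a locus, so reads could be assigned to either.

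The side lower in GKO tumours included a fetal serum protein, 2 proteins of cilia and flagella and a protein of the secretory pathway. Afp, the fetal serum protein alpha-fetoprotein, was 2353 and 3334 TPM in WT tumours 1 and 2, 66.1 TPM in WT tumour 3, and 18.6, 55.6 and 13.0 TPM in the GKO tumours. Its log2 fold change of -5.02 ± 1.45 rested on WT tumours 1 and 2. Dnaic1, an intermediate chain of axonemal dynein, was 54.0, 61.3 and 14.6 TPM against 0.389, 1.36 and 0.131 TPM (-4.61 ± 0.57, adjusted p = 0.124), and Tekt5, a tektin of the axoneme, was 27.6, 32.9 and 1.32 TPM against 0.479, 0.0677 and 0.472 TPM. Dnaic1 separated the groups in all 6 tumours, whereas Tekt5 was high in WT tumours 1 and 2 alone. Derl3, a component of endoplasmic reticulum protein disposal, was 206, 151 and 35.3 TPM against 3.58, 21.8 and 1.47 TPM. Asns, asparagine synthetase, was 28.6, 40.5 and 44.4 TPM against 0.0396, 4.34 and 19.6 TPM, and it was close to absent in GKO tumour 1. Only 7 genes kept the 3 WT tumours and the 3 GKO tumours apart by a gap of at least 2 on the log2 scale: Csn3, Dnaic1, Gm36325 and Lcn2 were high in WT, and Acot2, Mt1 and Ces3b were high in GKO tumours. The same gap set WT tumours 1 and 2 apart from the other 4 tumours, WT tumour 3 included, in 48 genes that were high in this pair and 14 that were low.

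The 13 proteins encoded by the mitochondrial genome are core subunits of the respiratory chain and of ATP synthase, and they are transcribed inside the organelle as long precursors from which the single transcripts are cut. All 13 of their genes had a lower mean in GKO tumours, with a median log2 fold change of -1.35, against 0.09 over all genes, and 12 of them had an unadjusted p under 0.05, against 3.49% of all genes. The 3 values per group did not overlap in 9. mt-Nd5, a subunit of complex I, was 2737, 1844 and 1831 TPM in the WT tumours and 953, 807 and 726 TPM in the GKO tumours (-1.35 ± 0.26, adjusted p = 0.296). mt-Cytb, of complex III, was 11536, 9268 and 6839 TPM against 4658, 5513 and 3872 TPM (-0.96 ± 0.29). In both, every GKO tumour lay below every WT tumour. mt-Co1, of complex IV, was the only 1 of the 13 past that threshold, with an unadjusted p of 0.157. It was 11713, 8209 and 7189 TPM against 7599.6, 5649.6 and 6334 TPM, and it was among the genes with overlapping groups. The largest difference of the 13 was at mt-Atp8, which had no more than 50, 35 and 6 reads in the WT and 2, 2 and 6 reads in the GKO tumours. WT tumour 3, at 3.33 TPM, lay within the GKO range of 1.06 to 3.58 TPM for this gene. The 16 mitochondrial transfer RNA genes and the 2 ribosomal RNA genes tested were lower as well, so that all 31 mitochondrial genes tested had a lower mean, 21 of them at an unadjusted p under 0.05.

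Summed over all mitochondrial genes, the share of TPM was 5.88%, 5.13% and 3.63% in WT tumours 1, 2 and 3 and 2.38%, 3.15% and 2.32% in GKO tumours 1, 2 and 3. The means were 4.88% ± 1.15 (SD, n = 3) and 2.62% ± 0.459 (SD, n = 3), and a two-sided exact permutation test gave p = 0.1, the smallest that 3 against 3 allows. In non-tumour livers the order was the other way, with 9.94%, 5.34% and 4.52% in WT and 9.93%, 21.4% and 9.94% in GKO samples, and normal livers lay between 8.80% and 17.5%. The median log2 fold change of the 13 protein genes was 1.20 in non-tumour livers, and the difference between the genotype effect in tumours and in non-tumour livers had a median of -2.55, with all 13 genes more negative in tumours at an unadjusted p under 0.05. Over all 14106 genes that entered this test, 362 (2.57%) were more negative in tumours and 1121 (7.95%) more positive at that threshold, and this split depended on the scaling, with 656 and 635 after median centring. The 79 nuclear genes for subunits of oxidative phosphorylation had a median log2 fold change of 0.07 in the tumours, with 0 higher and 2 lower at an unadjusted p under 0.05. The count of 12 mitochondrial genes was 7 with WT tumours 1 and 2 averaged, 7 without WT tumour 2, and 5 without WT tumour 1 or without GKO tumour 3. Copies of mitochondrial DNA in the nuclear genome share reads with these genes and make their assignment uncertain.

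**Figure D2:**
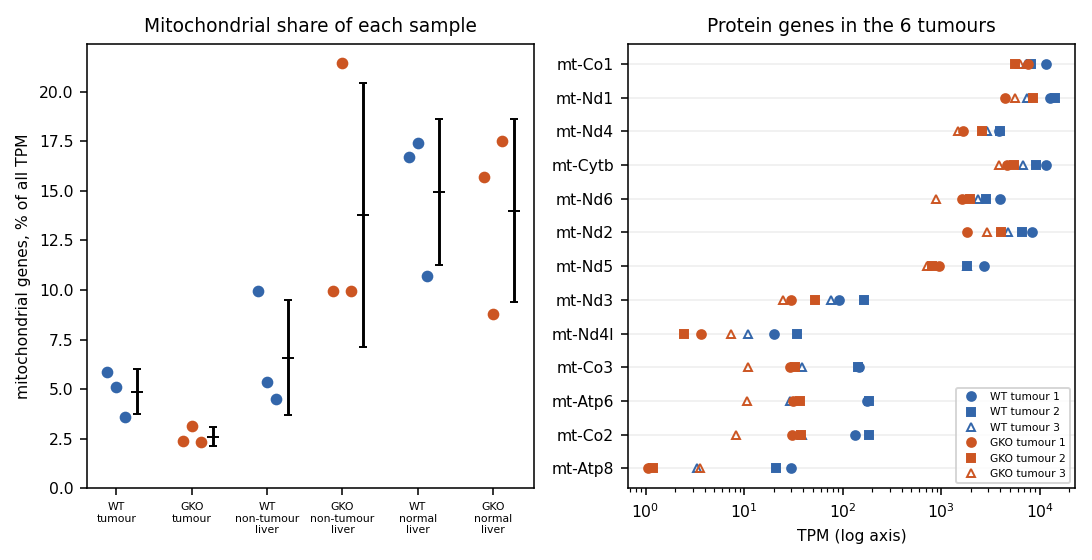
Left, the share of TPM on mitochondrial genes in percent for every sample of the 6 groups, with mean and SD (n = 3); right, TPM on a log axis of the 13 mitochondrial protein genes in the 6 tumours. The 3 GKO tumours, at 2.32% to 3.15%, lie below the 3 WT tumours, at 3.63% to 5.88%, and most protein genes show the same order.

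PPAR alpha is the nuclear receptor through which fatty acids switch on their own oxidation in hepatocytes. Of 43 genes of fatty acid oxidation and PPAR alpha targets, 42 had a higher mean in GKO tumours, against 8375 of all 13964 genes tested. At an unadjusted p under 0.05, 14 were higher and 0 lower, against 5.37% and 3.49% of all genes. The median log2 fold change of the group was 0.97. The group includes Acot2, Acot3 and the fatty acid hydroxylase Cyp4a31, which was 17.2, 12.6 and 30.1 TPM in the WT tumours and 44.4, 118 and 179 TPM in the GKO tumours (2.33 ± 0.55). Acadvl, the very long chain acyl-CoA dehydrogenase of the inner mitochondrial membrane, was 19.5, 19.2 and 56.1 TPM against 63.3, 59.9 and 138 TPM (1.51 ± 0.51). Fabp1, the liver fatty acid binding protein, was 1617, 2392 and 9230.2 TPM against 5928, 15184 and 13128 TPM, and Angptl4, a secreted inhibitor of lipoprotein lipase, was 7.38, 10.01 and 79.4 TPM against 46.9, 136 and 128 TPM. In both, WT tumour 3 lay above GKO tumour 1, so the groups overlapped. WT tumour 3 was the highest WT tumour for 37 of the 43 genes, 86.0%, against 37.4% of all genes. The count of 14 became 28 without WT tumour 3, 3 without GKO tumour 3, and 4 with WT tumours 1 and 2 averaged. Over all genes, 8.84% were higher without WT tumour 3 and 2.78% with that pair averaged. In non-tumour livers the median was -0.37, against -0.16 over all genes tested. The genotype effect was more positive in tumours than in non-tumour livers for 15 of the 43 genes at an unadjusted p under 0.05. Over all genes in that test the share was 7.95%.

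De novo lipogenesis makes fatty acids from acetyl-CoA. Of its 19 genes, 17 had a higher mean in GKO tumours, against 8375 of all 13964 genes tested. At an unadjusted p under 0.05, 5 were higher, against 5.37% of all genes. The list median was 0.70. Fads2, the delta-6 desaturase, was 364, 325 and 354 TPM in the WT tumours and 1182, 611 and 2507 TPM in the GKO tumours (1.81 ± 0.49). Acacb, the acetyl-CoA carboxylase whose product holds back mitochondrial fatty acid uptake, was 0.804, 0.961 and 0.988 TPM against 3.91, 2.37 and 16.4 TPM. Srebf1, the transcription factor that drives the pathway, was 58.8, 58.3 and 23.8 TPM against 105, 99.96 and 274 TPM. In all 3 genes GKO tumour 3 was the highest of the 6, as it was for 16 of the 19 genes of the list and 34.1% of all genes. Without GKO tumour 3 the median of the list was 0.15, and without GKO tumour 2 the count of 5 was 11.

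Bile acids are made from cholesterol in hepatocytes, taken back up from portal blood and exported into bile. Of 24 genes of bile acid synthesis and transport, 17 had a higher mean in GKO tumours, against 8375 of all 13964 genes tested. At an unadjusted p under 0.05, 8 were higher and 2 lower, against 5.37% and 3.49% of all genes. The median was 0.61. Beside Cyp7a1, the uptake carrier Slc10a1 was 7.54, 15.4 and 92.4 TPM in the WT tumours and 74.0, 77.6 and 219.8 TPM in the GKO tumours, and Nr1h4, the bile acid receptor FXR, was 29.6, 29.5 and 59.4 TPM against 76.7, 57.8 and 132 TPM. WT tumour 3 lay within the range of the GKO tumours for both. Both members that were lower encode the heterodimer that exports cholesterol into bile. Abcg5 was 188, 153 and 154 TPM against 13.4, 56.6 and 65.5 TPM (-2.12 ± 0.56), and Abcg8 was 106, 88.7 and 90.5 TPM against 10.1, 38.6 and 44.4 TPM (-1.82 ± 0.52). Both were lowest in GKO tumour 1. The 2 genes overlap on opposite strands of chromosome 17 (GRCm38.p6), at chr17:84658234-84683011 and chr17:84676302-84700333, so reads in the overlap could belong to either unless the counting used strand. The count of 8 was 2 with WT tumours 1 and 2 averaged and 2 to 3 when WT tumour 1, WT tumour 2, GKO tumour 1 or GKO tumour 3 was left out.

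Several families of liver enzymes and secreted proteins had higher means in GKO tumours. Of 13 carboxylesterases, which hydrolyse esters, lipids and drugs, 9 had a higher mean, against 8375 of all 13964 genes tested. The 9 became 8 after median centring, after quantile normalization and with voom. At an unadjusted p under 0.05, 5 were higher, against 5.37% of all genes. This count of 5 stayed at 5 or 6 when any 1 tumour was left out. Ces1d was 17.1, 16.9 and 5.64 TPM in the WT tumours and 53.8, 102 and 42.7 TPM in the GKO tumours (2.28 ± 0.49), and Ces1g was 8.004, 9.28 and 1.61 TPM against 125, 17.5 and 23.1 TPM. All 11 major urinary proteins tested, pheromone carriers of male mouse urine, had a higher mean, but only Mup20, at 1534, 1508 and 1538 TPM against 2119, 6399 and 10294 TPM, had an unadjusted p under 0.05. Without GKO tumour 2 the list median of 1.07 became -0.16, and at the unadjusted threshold 0 members were higher and 1 was lower. Cyp3a11, a drug-metabolizing cytochrome P450, was 137, 136 and 119 TPM against 428, 203 and 327 TPM (1.22 ± 0.30). In the growth hormone and IGF axis, 15 of 18 genes were higher (13 after median centring or quantile normalization and 11 with voom), 4 at an unadjusted p under 0.05, and Igfbp3, the main carrier of IGF1 in blood, was 14.1, 18.5 and 6.95 TPM against 42.3, 52.7 and 39.2 TPM (1.77 ± 0.35). Slc2a2, the hepatocyte glucose transporter GLUT2, was 7.27, 9.24 and 12.3 TPM against 37.9, 34.4 and 134 TPM (2.45 ± 0.52), whereas G6pc, the last enzyme of glucose output, was 125, 91.1 and 140.1 TPM against 3.77, 30.1 and 62.7 TPM (-2.48 ± 0.87). Members of the Ces1 and Mup clusters are near-identical copies, so reads could be split between them by the counting.

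The circadian clock is a feedback loop in which BMAL1 (Arntl) and its partners activate the Per, Cry and Nr1d genes, whose products then repress the activators. Of 21 clock genes tested, 9 were higher and 4 lower in the GKO group at an unadjusted p under 0.05, against 5.37% and 3.49% of all genes, and 8 and 4 had groups that did not overlap. Both arms of the loop were represented. Usp2, a clock-driven deubiquitinase, was 1.61, 1.26 and 0.917 TPM in the WT tumours and 16.4, 5.33 and 14.6 TPM in the GKO tumours (2.42 ± 0.40). Ciart, a repressor of BMAL1, was 0.963, 1.78 and 2.05 TPM against 19.5, 5.25 and 14.4 TPM (2.30 ± 0.45), and Per3 was 0.768, 0.988 and 1.29 TPM against 7.96, 3.12 and 7.71 TPM (1.77 ± 0.34). In these outputs every GKO tumour lay above every WT tumour, and GKO tumour 2 was the lowest of the GKO tumours. Arntl itself was 5.15, 2.82 and 1.69 TPM against 0.288, 0.601 and 0.551 TPM (-1.43 ± 0.32), and Nfil3, the repressor that opposes Dbp, was 39.9, 38.04 and 25.3 TPM against 16.99, 9.90 and 10.2 TPM (-1.42 ± 0.29). Rora was 23.6, 21.8 and 23.7 TPM against 5.31, 12.1 and 9.49 TPM (-1.34 ± 0.29). In non-tumour livers the median of the list was -0.03, against -0.16 over all genes tested. The labels give no hour of harvest, so genotype and time of day cannot be told apart here. The counts of 9 and 4 were 7 and 3 with WT tumours 1 and 2 averaged, and 7 to 12 and 3 to 5 over the fits that left out 1 tumour.

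BMAL1 and its partners bind the E-box CACGTG, a palindrome that reads the same on both strands. The windows around this motif in the promoters of 3 of the clock genes that were higher are shown with the motif in capitals, because they hold the letters through which the feedback loop is known to act. Each promoter was the 300 bases from 250 before to 50 after the RefSeq start on GRCm38.p6, and the windows are at chr11:69098771-69098800 on the plus strand for Per1, chr15:81802534-81802563 on the plus strand for Tef and chr3:95882327-95882356 on the minus strand for Ciart, which holds the motif 3 times.
Per1: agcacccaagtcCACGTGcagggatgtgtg
Tef: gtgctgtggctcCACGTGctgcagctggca
Ciart: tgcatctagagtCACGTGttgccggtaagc
A gene was counted if any of its promoters held the motif. It was found for 5 of the 17 clock genes with a promoter available, 3 of the 7 higher ones and 0 of the 4 lower ones. Of the 9797 tested genes with a promoter available, 11.8% had it. Counted by promoter instead of by gene, 7.15% of all 32851 promoters held it. Per1 was 6.79, 7.20 and 4.69 TPM in the WT tumours and 17.9, 9.53 and 19.8 TPM in the GKO tumours, and Tef, an output factor of the loop, was 9.13, 7.58 and 15.7 TPM against 37.0, 20.5 and 51.7 TPM. A match in the letters is a description and does not show binding.

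**Figure D3:**
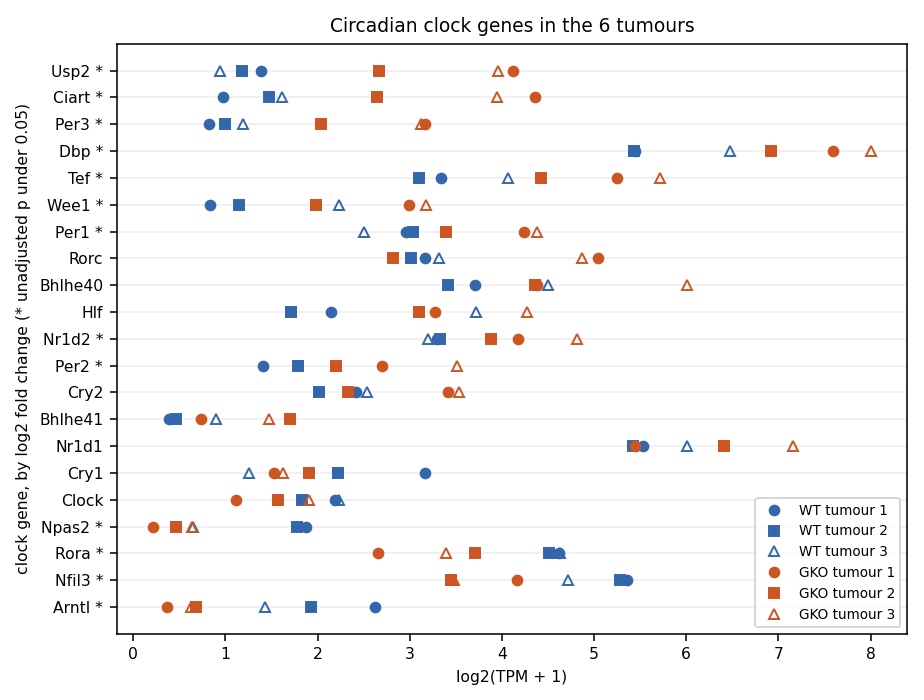
Level of the 21 clock genes in the 6 tumours as log2(TPM + 1), ordered by log2 fold change, with an asterisk at genes with an unadjusted p under 0.05. Usp2, Ciart, Per3 and Dbp at the top have all orange GKO symbols to the right of all blue WT symbols, and Rora, Nfil3 and Arntl at the bottom have them to the left.

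The extracellular matrix of the liver is laid down mainly by stellate cells and portal fibroblasts, and hepatocytes make little of it. Of 41 matrix genes, 37 had a higher mean in GKO tumours, against 8375 of all 13964 genes tested. At an unadjusted p under 0.05, 18 were higher and 1 lower, against 5.37% and 3.49% of all genes. The groups did not overlap in 17 and 1, against 9.88% and 4.78% of all genes. The median was 0.74. Col1a1, the alpha 1 chain of type I collagen, was 14.5, 21.2 and 14.3 TPM in the WT tumours and 39.5, 62.2 and 23.5 TPM in the GKO tumours (1.19 ± 0.37), and Col3a1 was 14.2, 17.3 and 10.9 TPM against 32.5, 40.7 and 21.4 TPM (1.08 ± 0.30). Timp2, an inhibitor of matrix metalloproteinases, was 4.19, 4.97 and 3.32 TPM against 74.1, 8.91 and 8.88 TPM, with GKO tumour 1 far above the others. Spp1, osteopontin, was 33.5, 42.0 and 10.7 TPM against 34.0, 934 and 536 TPM, so that GKO tumour 1 stayed within the WT range. The member that was lower was Col5a3, at 11.5, 11.7 and 8.92 TPM against 6.09, 3.48 and 2.76 TPM (-1.24 ± 0.28). Summed, the list was 779 to 1101 TPM in the WT tumours and 1429 to 2085 TPM in the GKO tumours, without overlap. The count of 18 was 13 with WT tumours 1 and 2 averaged and 11 without WT tumour 3. In non-tumour livers the median was -0.21, against -0.16 over all genes tested. The genotype effect was more positive in tumours than in non-tumour livers for 17 of the 41 genes at an unadjusted p under 0.05. Over all genes in that test the share was 7.95%.

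The marker lists of mesenchymal cells stood on the same side. Of 14 stellate cell and pericyte markers, 12 had a higher mean in GKO tumours, against 8375 of all 13964 genes tested. At an unadjusted p under 0.05, 6 were higher and 0 lower, against 5.37% and 3.49% of all genes. The count of 6 was also 6 with WT tumours 1 and 2 averaged, and 5 to 7 when any 1 tumour was left out. Rgs5, a pericyte regulator of G protein signalling, was 2.34, 1.61 and 1.72 TPM in the WT tumours and 12.4, 7.67 and 5.52 TPM in the GKO tumours (1.67 ± 0.30). Cygb, the stellate cell globin, was 3.37, 3.66 and 3.06 TPM against 13.5, 15.1 and 7.003 TPM (1.498 ± 0.30), and Colec11, a stellate cell collectin, was 14.3, 18.025 and 12.9 TPM against 56.9, 49.9 and 31.4 TPM (1.52 ± 0.28). All 3 had every GKO tumour above every WT tumour. Summed, the stellate markers were 57.1 to 73.7 TPM in the WT and 87.3 to 175 TPM in the GKO tumours, and 14 fibroblast and smooth muscle markers, 4 of them higher at an unadjusted p under 0.05 and 7 without WT tumour 2 or GKO tumour 3, were 83.3 to 113 TPM against 121 to 213 TPM. In whole tumour tissue, more cells of a type and more RNA per cell cannot be told apart. The fibroblast and smooth muscle list and the matrix list share members, Col1a1 and Col3a1 among them, so their sums partly count the same genes. The part of mesenchymal cells in the matrix result was not tested.

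Other cell types gave smaller or mixed differences. Of 7 cholangiocyte markers tested, 6 had a higher mean in GKO tumours, against 8375 of all 13964 genes tested. At an unadjusted p under 0.05, 3 were higher, against 5.37% of all genes, and this count was 1 without GKO tumour 2. Epcam was 0.716, 0.610 and 0.0516 TPM in the WT tumours and 1.53, 6.13 and 3.05 TPM in the GKO tumours, whereas Sox9 was 10.03, 10.1 and 11.5 TPM against 0.471, 12.7 and 8.19 TPM. The summed cholangiocyte markers reached 975 TPM in GKO tumour 2, of which Spp1 made up most. All 13 sinusoidal endothelial markers had a lower mean, none with an unadjusted p under 0.05, and 12 of them were lowest in GKO tumour 1, where their sum was 35.8 TPM against 98.97 to 156 TPM in the other tumours. Without GKO tumour 1 their median log2 fold change of -0.23 became 0.22, against 0.11 over all genes in that fit. Clec4g, a sinusoidal lectin, was 8.21, 18.1 and 16.8 TPM against 1.63, 30.7 and 14.1 TPM. Of 19 vascular endothelial markers 15 had a higher mean and 0 an unadjusted p under 0.05. The 15 became 13 after median centring, after quantile normalization and with voom. Kupffer cell markers summed to 147 to 305 TPM in WT and 197 to 438 TPM in GKO tumours, T cell markers to 3.84 to 30.3 TPM and 6.996 to 10.5 TPM, and in neither list did a gene have an unadjusted p under 0.05. Of the 12 markers of monocytes and recruited macrophages, 8 had a higher mean, against 8375 of all 13964 genes tested. The 8 became 7 after median centring, after quantile normalization and with voom, and the list median was 0.21. At an unadjusted p under 0.05, 1 was lower, Cd9, at 457, 383 and 112 TPM against 15.1, 89.8 and 31.8 TPM.

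**Figure D4:**
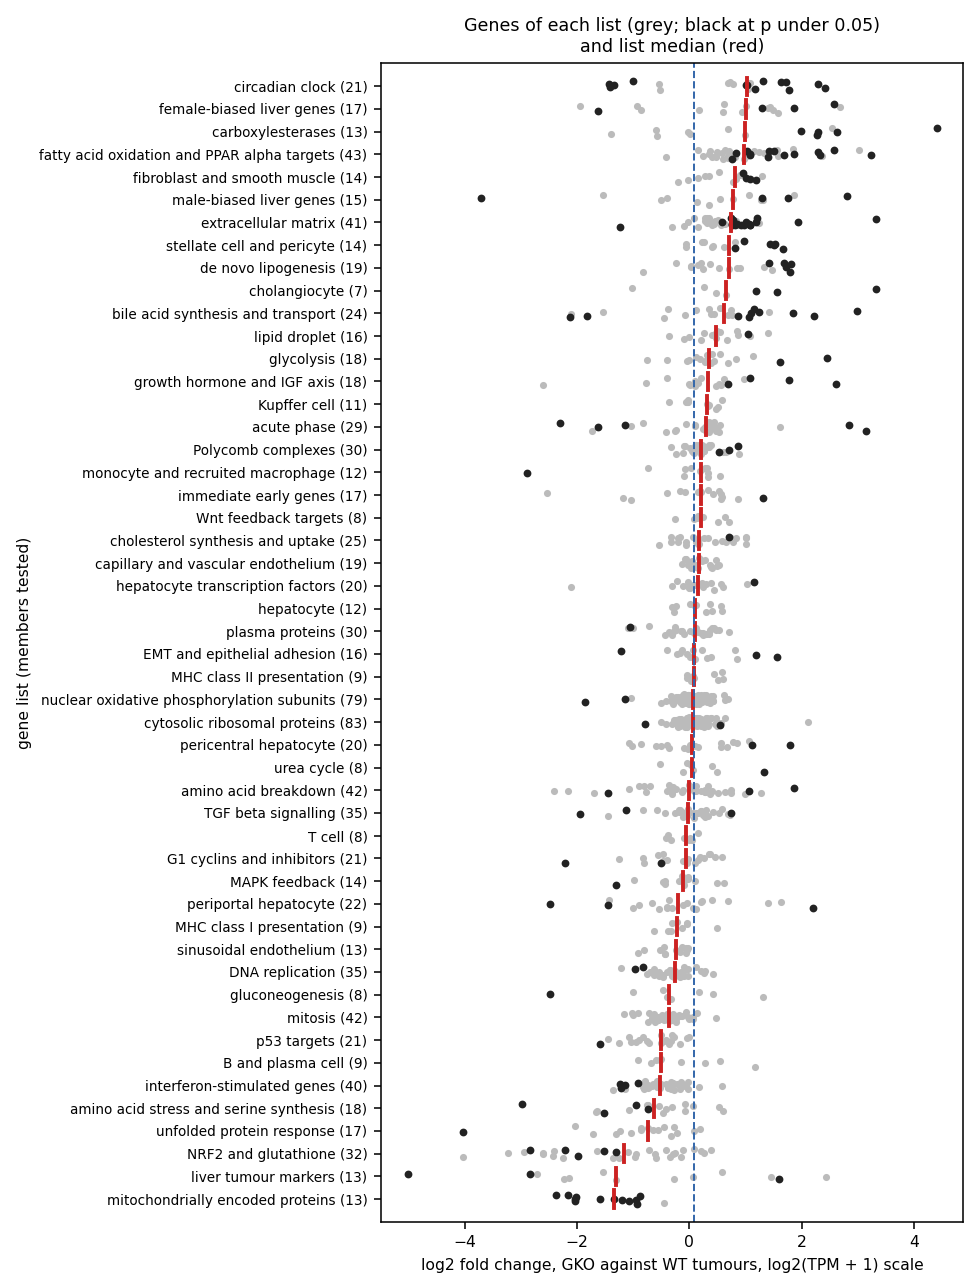
Log2 fold change (GKO over WT tumours) of every gene tested in lists with at least 7 genes tested, one row per list, black where the unadjusted p was under 0.05, with the list median in red and the median of all genes tested, 0.09, as a dashed line. The mitochondrially encoded proteins lie furthest to the left, with a median of -1.35, and the circadian clock has black points on both sides.

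NRF2 drives genes that detoxify electrophiles and make glutathione. Of 32 such genes, 28 had a lower mean in GKO tumours, with a median of -1.17. Of all 13964 genes tested, 8375 had a higher mean. At an unadjusted p under 0.05, 5 of the 32 were lower, against 3.49% of all genes. Gclc, the rate-limiting enzyme of glutathione synthesis, was 289, 238 and 117 TPM in the WT tumours and 48.6, 62.5 and 41.3 TPM in the GKO tumours (-1.98 ± 0.37), and Gstp2, a glutathione transferase, was 712, 581 and 499.8 TPM against 245, 44.0 and 50.3 TPM (-2.84 ± 0.63). In these 2 genes WT tumour 3 stayed with the WT group. In Gsta4, at 242, 247 and 46.3 TPM against 52.0, 59.2 and 7.89 TPM, and in Slc7a11, the cystine carrier, at 4.18, 5.07 and 0.0407 TPM against 0.295, 0.0527 and 0 TPM, it lay with the GKO tumours. WT tumour 3 was the lowest WT tumour for 28 of the 32 genes, 87.5%, against 46.2% of all genes, and without it 22 of the 32 were lower at an unadjusted p under 0.05, against 9.02% of all genes. That fit leaves WT tumours 1 and 2, the most alike pair, as the whole WT group. With this pair averaged as 1 sample, 3 of the 32 were lower, against 1.96% of all genes.

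WT tumour 3 was also the lowest WT tumour in most genes of cell growth and stress. Of 42 mitosis genes, 38 had a lower mean in GKO tumours and 0 an unadjusted p under 0.05, and without WT tumour 3, which was the lowest WT tumour for all 42, the count was 23. For 35 DNA replication genes the count was 2 with and 19 without it, for 21 targets of p53 it was 1 and 12, for 17 genes of the unfolded protein response 1 and 11, and for 40 interferon-stimulated genes 4 and 16. With WT tumours 1 and 2 averaged as 1 sample, the counts were 0 for mitosis, 1 for DNA replication and 0 for p53 targets. They were 1 for the unfolded protein response and 2 for interferon-stimulated genes. Over all genes, 3.49% were lower at this threshold with every tumour included, 9.02% without WT tumour 3 and 1.96% with that pair averaged. Ccne1, cyclin E1, was 54.5, 43.5 and 7.66 TPM in the WT tumours and 6.10, 4.87 and 4.12 TPM in the GKO tumours (-2.22 ± 0.67), so that WT tumour 3 lay just above the GKO range. Mcm2, a subunit of the replicative helicase, was 5.91, 6.27 and 3.19 TPM against 2.38, 2.04 and 1.72 TPM (-0.97 ± 0.27). Irf7, which amplifies the interferon response, was 50.7, 58.4 and 27.4 TPM against 14.4, 20.6 and 19.9 TPM (-1.22 ± 0.33), and Oasl1 was 16.3, 18.9 and 6.08 TPM against 4.86, 4.22 and 5.14 TPM. Summed interferon-stimulated genes did not overlap, at 1819 to 2587 TPM in WT and 1390 to 1496 TPM in GKO tumours. Trp53inp1, a p53 target of the stress response, was 62.8, 57.1 and 19.8 TPM against 9.73, 23.9 and 9.65 TPM, with WT tumour 3 inside the GKO range.

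CBX7 acts in Polycomb repressive complex 1, which keeps developmental genes silent. Of 30 genes of Polycomb complexes, 25 had a higher mean in GKO tumours, against 8375 of all 13964 genes tested. The 25 became 23 after median centring, 22 after quantile normalization and 21 with voom. At an unadjusted p under 0.05, 3 were higher, which was 1 without WT tumour 1 and 6 without WT tumour 3. The list median was 0.21. Cbx6, a paralogue of Cbx7, was 1.11, 1.82 and 0.790 TPM in the WT tumours and 2.85, 3.30 and 2.84 TPM in the GKO tumours (0.86 ± 0.23), and Ezh1, a histone H3 methyltransferase, was 2.73, 2.86 and 2.57 TPM against 4.44, 3.45 and 5.42 TPM. Of 592 CBX7 target genes that the study had collected from chromatin immunoprecipitation, 586 were found in the table and 236 were expressed highly enough to test. Their median was 0.14, against 0.09 over all genes, and 149 had a higher mean, against 8375 of all 13964 genes tested. At an unadjusted p under 0.05, 21 were higher and 14 lower, against 5.37% and 3.49% of all genes. These counts were 16 and 19 after median centring, 9 and 8 without WT tumour 1, and 26 and 26 without WT tumour 3. The list thus lay close to all genes in its median and in its share of higher means. Tox2, a transcription factor of T cells and other lineages, was 19.1, 16.3 and 10.7 TPM against 0.318, 5.32 and 1.54 TPM (-2.53 ± 0.55), and Cys1, a protein of the primary cilium, was 0.328, 0.495 and 0.576 TPM against 2.42, 4.27 and 5.49 TPM (1.74 ± 0.28). Wnt10a, a secreted Wnt ligand, was 148 and 142 TPM in WT tumours 1 and 2, was 0 TPM in WT tumour 3 and GKO tumour 1, and was 0.149 and 0.0494 TPM in GKO tumours 2 and 3.

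Some differences belonged to 1 tumour. By a gap of at least 2 on the log2 scale to the nearest of the other 5 tumours, GKO tumour 1 was highest alone in 40 genes and lowest alone in 31. Cldn15, a claudin that forms cation pores in tight junctions, was 357 TPM in GKO tumour 1 and at most 1.32 TPM elsewhere, and Ldlrad1 was 32.3 TPM there and 0 TPM in the other 5. Gpc3, a glypican of fetal liver and liver cancer, was 2.49 TPM in GKO tumour 1 and 104 to 277 TPM elsewhere. Nr0b2, the FXR-induced repressor SHP, was 2.68 TPM there and 75.9 to 144 TPM elsewhere. Serpina12, the adipokine vaspin, was 390.5, 385 and 392 TPM in the WT tumours and 0.909, 57.4 and 233 TPM in the GKO tumours, and its log2 fold change of -3.72 ± 1.57 had a wide error. WT tumour 3 was highest alone in 33 genes and lowest alone in 7, among them Spink1, a trypsin inhibitor, at 0.537 TPM against 52.8 to 333 TPM elsewhere, and the imprinted RNA H19, at 5.43 TPM against 145 to 1679.9 TPM. GKO tumour 2 was highest alone in 22 genes, led by Mup11 at 209 TPM against at most 6.601 TPM, and GKO tumour 3 in 14, led by Thrsp, a lipogenic nuclear protein, at 492 TPM against at most 68.2 TPM. WT tumour 1 was highest alone in 13 genes and WT tumour 2 in 5, but in 0 of either at a mean TPM of at least 5. Of the 445 genes at least 2-fold higher in GKO tumours and the 430 at least 2-fold lower, 93 and 73 had a log2 fold change that more than halved when 1 tumour was left out, most often GKO tumour 1, with 43 and 27.

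WT tumour 3 also differed from the other tumours by chromosome. For each tumour and chromosome, the deviation of each gene whose mean TPM reached 5 was taken from the median of the other 5 tumours, and the median over genes was used. In WT tumour 3 it lay beyond 0.15 in either direction for 12 of 19 autosomes, from -0.41 on chromosome 14 and -0.39 on chromosome 8 to 0.36 on chromosome 1. In GKO tumour 3 it did so for 1 autosome, chromosome 9, at -0.22, and in the other 4 tumours for 0, with medians between -0.11 and 0.08. A log2 difference over a chromosome is a difference in RNA level, and DNA copy number was not measured here.

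**Figure D5:**
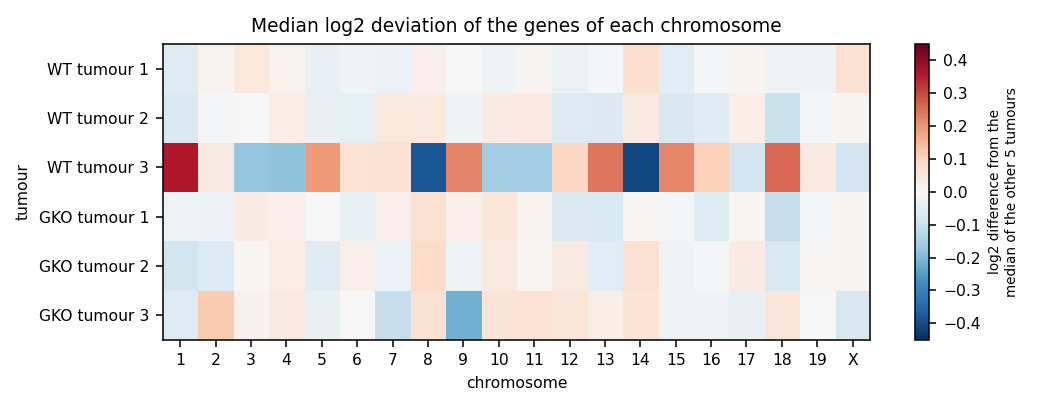
Median log2 difference of the genes on each autosome and the X chromosome from the median of the other 5 tumours, one row per tumour, red where higher and blue where lower. The row of WT tumour 3 ranges from -0.41 to 0.36, and apart from chromosome 9 in GKO tumour 3, at -0.22, the other rows lie close to 0.

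The genotype effect in tumours was set against the genotype effect in non-tumour livers in 1 fit of 12 samples. The difference had an adjusted p under 0.05 for 2 of 14106 genes (0.0142%), Csn3 and Gm36325, both more negative in tumours (limma). For Lcn2 the difference was -0.51 with an unadjusted p of 0.726. Its mean was lower in GKO samples in both tissues, but its values varied widely among the WT non-tumour livers. Between GKO and WT non-tumour livers, 0 genes had an adjusted p under 0.05 (limma). The gene groups described had these medians in the separate tissues. The matrix list had a median of 0.74 in tumours and -0.21 in non-tumour livers, fatty acid oxidation 0.97 and -0.37, and lipogenesis 0.70 and -0.61, whereas stellate markers had 0.71 and 0.45 and NRF2 genes -1.17 and -0.69. The medians of all genes tested were 0.09 in tumours and -0.16 in non-tumour livers, so the matrix list lay near all genes in non-tumour livers. Over all genes the median difference of the effects was 0.23, and after median centring it was 0.01. The 1121 genes with a more positive effect in tumours at an unadjusted p under 0.05 became 635 after median centring. Without GKO non-tumour liver 2 they became 543. The counts given above for single lists in this comparison come from TPM as deposited with all 12 samples.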

How the data were processed

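Total RNA of flash-frozen tissue was sequenced on an Illumina HiSeq instrument. The authors mapped reads to mm10 with STAR 2.7.3a and counted them per gene with featureCounts 2.0.0, and deposited TPM values for 54838 genes in 18 samples, 3 per group. Whether counting used strand is not given in the sources used here. TPM sums to 1000000 in each sample, so values are relative to each sample's total. Whole reads were recovered from TPM and exonic gene length (GENCODE release 21): 98.38% to 98.65% of values of up to 30 reads came out within 0.02 of a whole number.

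Groups came from the sample labels. Genes with a mean TPM of at least 0.5 over the 6 tumours were tested on log2(TPM + 1) with limma 3.58.1 (R 4.3.3; eBayes with trend, Benjamini-Hochberg adjustment over all genes tested). Fold changes are on that scale, which understates changes of low genes, and ± after a fold change is its standard error. The tissue comparison was an interaction contrast over 12 samples. On simulated data of the tumour comparison, run on 13964 genes with 200 changed at each size, 0% of genes changed by 1 on the log2 scale, 60% of those changed by 2 and 91.5% of those changed by 4 were recovered. Alternatives were another pseudocount, filters, scalings, variance models, all 18 samples in 1 fit, a replicate block, voom on recovered reads with trimmed-mean (TMM) scaling, WT tumours 1 and 2 averaged and each tumour left out. TPM rescaled without mitochondrial genes, and the settings of the counts of genes high or low in 1 tumour, were added after seeing the data.

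Named were the genes past adjustment in the tumour or the tissue comparison, the 12 largest differences per side with an unadjusted p under 0.05 and groups that did not overlap, up to 3 per side in each of 77 gene lists, up to 4 per side high or low in 1 tumour, and the targeted genes and Cbx7. Acadvl, Angptl4, Dbp, Fabp1, Per1, Sox9, Srebf1, Tef, mt-Co1, mt-Cytb and mt-Nd5 were chosen after their values were seen. The comparison, gene lists and rules were chosen with earlier results of these data known, and the CBX7 target list is the study's own.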

Additional observations from a re-analysis of the deposited data

Results flagged for a closer look

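For 2 genes the genotype effect in tumours differed from that in non-tumour livers at an adjusted p under 0.05 (limma, interaction contrast over 12 samples, 3 per group). For Csn3 the difference of the log2 fold changes was -6.24 (adjusted p = 0.00349), and all 3 GKO tumours were lower than all 3 WT tumours. For Gm36325 the difference was -3.13 (adjusted p = 0.00349), again with all 3 GKO tumours below all 3 WT tumours. Both genes were near 0 TPM in non-tumour livers of either genotype. Groups of 3 samples are too small for a test of single outlying samples.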

How the results depend on the processing

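Of the 3 genes with an adjusted p under 0.05, the count was 0 with a pseudocount of 0.1, without a filter on low values, after median centring, with WT tumours 1 and 2 averaged and with voom on recovered reads, and 107 with all 18 samples in 1 fit. When each tumour was left out in turn it ranged from 0 to 149. The 750 genes higher at an unadjusted p under 0.05 became 387 at a mean TPM of at least 5, 1154 with all 18 samples and 388 with the averaged pair, and 333 to 1234 with each tumour left out. The 488 lower became 273 at a mean TPM of at least 5, 274 with the averaged pair, and 270 to 1259 with each tumour left out; 149, 1234 and 1259 are the values without WT tumour 3. The 2 genes of the tissue comparison became 0 with a pseudocount of 0.1, 4 without a filter and 1 at a mean TPM of at least 5, and 2 to 91 with each sample left out, with 91 without WT tumour 3 and 17 without GKO tumour 2. With the replicate number as a block, 0 genes passed adjustment, 897 were higher and 618 lower at the unadjusted threshold, and the tissue comparison kept a count of 2. The numbers were not taken as pairs. Same-numbered tumours correlated in their deviations from the group means at 0.10, 0.12 and 0.19, and the other pairs at -0.235 to 0.11. Each WT tumour correlated most with the GKO tumour of its number, but GKO tumour 1 correlated more with WT tumour 2, at 0.11, than with WT tumour 1. These values could not decide whether same-numbered tumours belong together. No log2 fold change of the 130 named genes recomputed changed sign while past the adjusted threshold: over all alternatives 2225 values kept their side of the threshold, 34 lost and 44 gained it. Of the list medians 1340 moved by less than the spread of the list between tumours and 40 by more. Under median centring, quantile normalization and voom, the number of members higher in GKO tumours stayed the same for the mitochondrial, fatty acid oxidation, matrix and stellate lists, and lipogenesis had 15 of 19. With a mean TPM of at least 5, GKO tumour 1 was highest alone in 22 and lowest alone in 31 genes, and WT tumour 3 in 14 and 7; GKO tumours 2 and 3 were highest alone in 12 and 2, and WT tumours 1 and 2 in 0. The cause of these changes was not tested. Depth limits genes of few reads, such as the 13 that WT tumour 1 was highest alone in, with 3 to 13 reads there.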
